A study of Mus musculus with 7 samples.

Results

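Basophils were taken here as barcodes with at least 2 of 5 marker transcripts of this lineage, Mcpt8, Cd200r3, Cyp11a1, Hdc and Gata2, each with 1 or more unique molecular identifiers (UMIs, counted RNA molecules). Mcpt8 or Cd200r3 had to be among the transcripts found, and the 3 mast cell protease transcripts Cma1, Mcpt4 and Tpsb2 had to be absent. The members were thus chosen by these measured UMIs. They were 169 of 40416 barcodes (0.418%) that remained after a minimum of 300 detected genes and a ceiling of 10% mitochondrial UMIs. The data came from wild-type female mice aged 8 to 9 weeks whose left brain hemisphere carried GL261, a mouse glioma line. Leukocytes (CD45+, and negative for the dead-cell dye DRAQ7) were sorted on day 21 after implantation and sequenced with 10x Genomics 3′ chemistry in 7 libraries. Each library was a pool of 5000 cells from each of 2 mice. The groups were untreated (1 library), PT2385 at 10 mg/kg from day 7, a HIF-2α inhibitor (2 libraries), ICB (antibodies aPD-1 and aTIM-3 against inhibitory receptors, 2 libraries), and the combination of PT2385 with ICB (2 libraries). The protocols describe a vehicle and isotype antibodies, without saying whether the untreated mice received them. The GL261 tumour is the only model used, and how many cells each of the pooled mice gave to a library after sequencing was not analysed here.

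Basophils are rare granulocytes that leave the bone marrow mature, bind IgE through the high-affinity receptor, and release histamine, leukotrienes and type 2 cytokines when that receptor or the receptors for interleukin-3, interleukin-18 and interleukin-33 are engaged. Mcpt8 is a serine protease of mouse basophils, Cd200r3 is an activating receptor of basophils and mast cells, Hdc makes histamine, Cyp11a1 is a steroid-producing enzyme, and Gata2 is the transcription factor that basophils and mast cells both need. Mast cells share the IgE receptor but live in tissue and store other proteases, whereas neutrophils are blood-borne granulocytes of a separate branch.

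GATA factors bind sites with the core letters GATA, so the promoter letters of the markers are shown for the genes of the gate and of a list of 12 basophil markers outside it. RefSeq promoter windows, from 250 bases before to 50 bases after the start, existed for 15 of 17 such genes, as 18 windows. They are on GRCm38.p6, whereas the deposited matrices were made on GRCm39 per the submitters' processing notes, so the coordinates belong to the RefSeq build. The hexamer AGATAA, read on both strands (TTATCT on the other), lay in 5 of these 18 windows (27.8%), belonging to 5 genes, and in 11.2% of all 32851 windows of the same length. The 5 genes were Cd200r3, Fcer1a, Ms4a2, Cpa3 and Prss34. The 250 bases before the start are given for the gate gene Cd200r3 and for both IgE receptor subunits that are particular to the receptor, Fcer1a (alpha chain) and Ms4a2 (beta chain), 5′ to 3′ on the gene's strand with the hexamer in capitals.
Cd200r3, chr16:44943428-44943677, plus strand: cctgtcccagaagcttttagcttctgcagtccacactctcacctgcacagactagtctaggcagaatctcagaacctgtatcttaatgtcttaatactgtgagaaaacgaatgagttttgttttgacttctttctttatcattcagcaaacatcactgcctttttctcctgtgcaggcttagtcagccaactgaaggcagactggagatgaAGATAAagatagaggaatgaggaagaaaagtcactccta
Fcer1a, chr1:173227230-173227479, minus strand: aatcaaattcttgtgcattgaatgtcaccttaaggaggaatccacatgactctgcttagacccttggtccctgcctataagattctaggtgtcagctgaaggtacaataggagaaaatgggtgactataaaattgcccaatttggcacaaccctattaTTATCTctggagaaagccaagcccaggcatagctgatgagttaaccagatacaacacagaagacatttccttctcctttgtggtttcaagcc
Ms4a2, chr19:11623720-11623969, minus strand: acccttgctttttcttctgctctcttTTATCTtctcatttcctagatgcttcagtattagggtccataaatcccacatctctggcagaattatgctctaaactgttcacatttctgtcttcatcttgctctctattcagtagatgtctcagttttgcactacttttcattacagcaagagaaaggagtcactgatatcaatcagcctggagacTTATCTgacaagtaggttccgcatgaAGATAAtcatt
The match began 39 bases before the start of Cd200r3 and 92 bases before that of Fcer1a, and Ms4a2 had 3 matches between 224 and 11 bases before its start. These letters are a description and not a measured binding site. The RNA levels of these 3 genes are given below.

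The gated barcodes were very unevenly spread over the libraries. ICB pool 1 held 141 of its 5884 kept barcodes, or 2.40% (exact binomial 95% interval 2.02 to 2.82, counting error only). The untreated pool held 21 of 7961, or 0.264% (0.163 to 0.403). The other pool of the ICB group held 3 of 5807 (0.0517%), and PT2385 pool 1, PT2385 pool 2, combination pool 1 and combination pool 2 held 1 each. Thus 83.4% of all members came from ICB pool 1 and 12.4% from the untreated pool, and the intervals of the 2 pools with the same ICB treatment did not overlap (0.0107 to 0.151 in ICB pool 2). Treatment and pool cannot be told apart for these members, so each library is described alone and no treatment effect was tested.

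**Figure D1:**
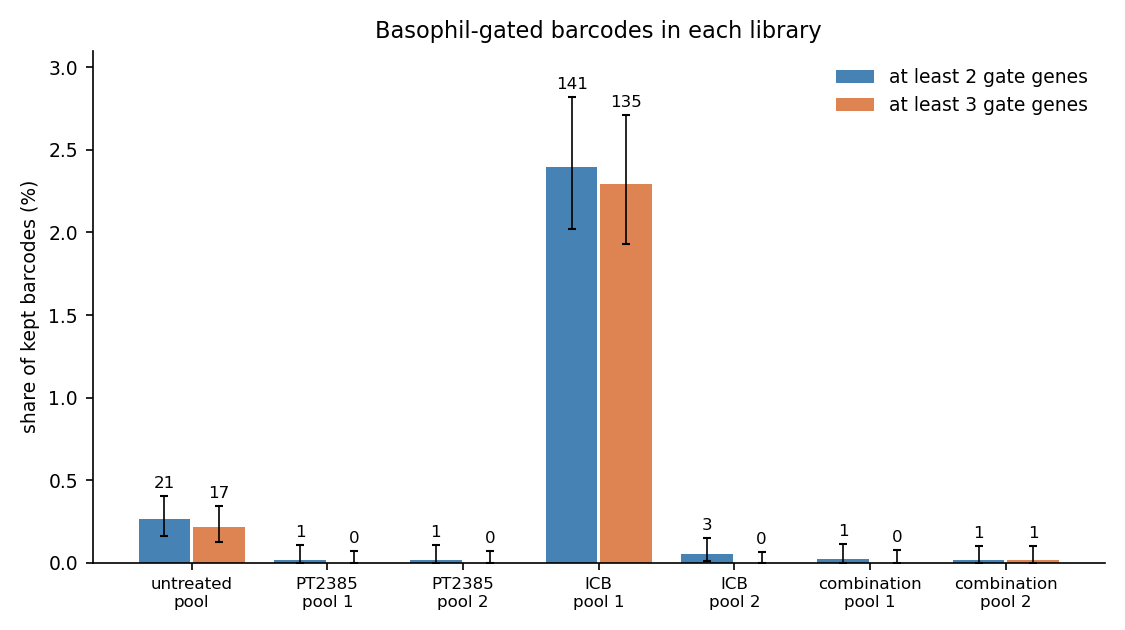
Share of kept barcodes (percent, vertical axis) that passed the basophil gate in each of the 7 libraries, with at least 2 gate genes (blue) and at least 3 (orange). Bars start at 0, numbers are barcodes and error bars are exact binomial 95% intervals. ICB pool 1 reached 2.40%, the untreated pool 0.264%, and the other 5 libraries stayed at or below 0.0517%.

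Most members carried several gate genes. In ICB pool 1, 86 members held all 5, 38 held 4, 11 held 3 and 6 held 2, and in the untreated pool the numbers were 9, 7, 1 and 4. Asking for at least 3 gate genes left 153 members, of which 135 were in ICB pool 1 (2.29%), 17 in the untreated pool (0.214%) and 1 in combination pool 2. The remaining 4 libraries then had none, and the limit of 3 counts that a count of 0 allows, which is smaller than the upper end of the exact interval drawn in the plot, was a share of 0.0578% in PT2385 pool 1, 0.0566% in PT2385 pool 2, 0.0517% in ICB pool 2 and 0.0619% in combination pool 1. At the edge of the gate, the 6 members of ICB pool 1 with exactly 2 genes had a median of 3 gate UMIs and the 4 of the untreated pool 2.5, against 68 and 47 for members with 3 or more genes. Just outside, 22 and 8 barcodes had 1 gate gene, Mcpt8 or Cd200r3, with a median of 1 UMI. A further 6 and 1 barcodes met the gene count but carried 1 to 5 UMIs of the excluded proteases, and these had medians of 64 and 62 gate UMIs. Above 5 protease UMIs lay 57 barcodes in ICB pool 1 (median 287 protease UMIs) and 47 in the untreated pool (median 300).

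The 6 members of PT2385 pools 1 and 2, ICB pool 2 and combination pool 1 each had exactly 2 gate genes, at 1 UMI apiece except for 1 barcode with 2 Hdc UMIs. Their summed C1qa, C1qb and C1qc UMIs (complement subunits made by macrophages) ran from 2 to 631, and none had an Il4 or Il6 UMI. The member of combination pool 2 looked different. It held 4 Mcpt8, 15 Cd200r3, 26 Cyp11a1, 47 Hdc and 7 Gata2 UMIs among 6472, together with 48 Il4, 48 Il6, 131 Ccl3 and 258 Ccl4 UMIs, 8 Ms4a2 and 2 Fcer1a UMIs, 2 C1q UMIs and no Cd74. Across libraries, 174 barcode sequences occurred in more than 1 library, 2 members had a barcode sequence kept elsewhere, and 0 members shared theirs with a member of another library.

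Members differed in how much RNA of other cell types they carried. In ICB pool 1, 120 of 141 members had at most 2 C1q UMIs and 11 (7.80%) had 10 or more, against 43.2% of the other barcodes of that library. In the untreated pool, 10 of 21 members had 10 or more (47.6%), close to the 47.5% of the other barcodes there. Members with 10 or more C1q UMIs were also larger, with medians of 23628 and 14217.5 UMIs against 4372.5 and 2990 for those with at most 2. T cell CD3 transcripts reached 3 UMIs in 8 and 1 members. The summed level of 12 macrophage and monocyte markers was 7047 CPM (UMIs scaled to a common total) in members of ICB pool 1 (19298 in the other barcodes) and 25797 in the untreated pool (31299), with none of the 12 at 0. In members with at most 2 C1q UMIs it was 1213 and 15115. Doublet scoring with Scrublet, taking the top 0.8% per 1000 barcodes, removed 19 of 141 and 2 of 21 members. Many results are therefore also given for members with at most 2 C1q UMIs. This cut was chosen after seeing the data. It was applied to the members only, and the barcodes they were compared with were left uncut. Macrophage genes therefore fall with it by construction. C1qa itself went from a log2 fold change against all other barcodes of -0.63 to -5.51. Among 302 gene values, 30 gained a call with the cut, 24 lost theirs and 4 changed sign, and not all are given. The cut does not remove all RNA of other cells. In ICB pool 1 it raised T cell markers from 366 to 403 CPM, neutrophil markers from 9423 to 14040 and progenitor markers from 3341 to 4595. There it kept 3 members with 10 or more Elane, Mpo and Prtn3 UMIs. In the untreated pool it kept members with exactly 2 gate genes, with 1, 2 and 2 C1q UMIs, which go against the label as given below. They had 7794, 16342 and 6937 UMIs and so held most of the UMIs of the 10 untreated members kept. Refits with this cut therefore rest, for the untreated pool, largely on these barcodes.

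**Figure D2:**
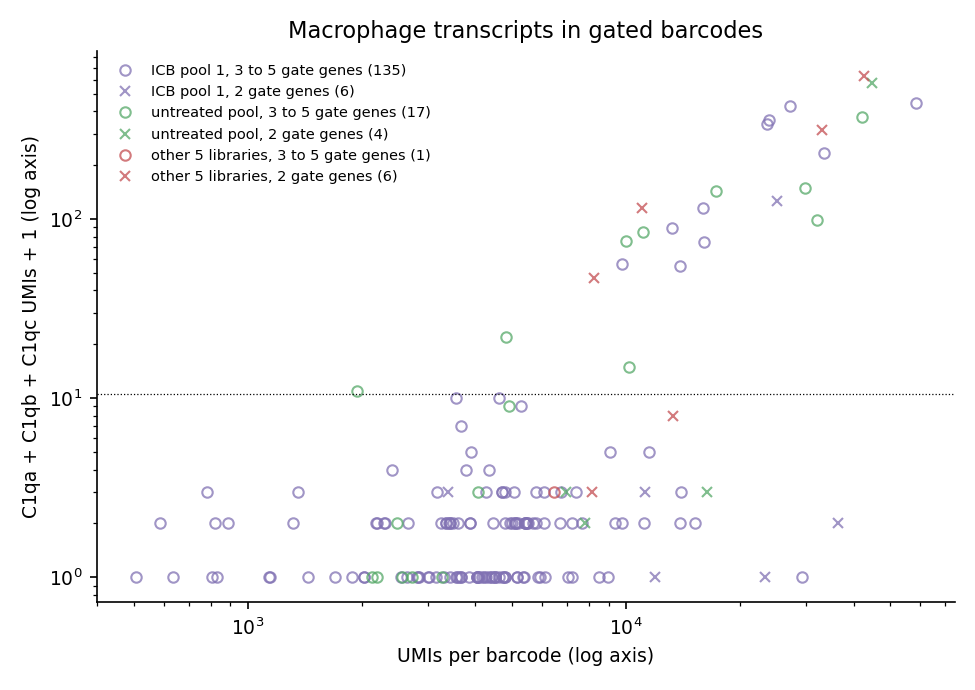
Summed C1qa, C1qb and C1qc UMIs plus 1 (vertical log axis) against all UMIs (horizontal log axis) of each of the 169 gated barcodes. Circles have 3 to 5 gate genes and crosses have 2, colours mark ICB pool 1, the untreated pool and the other 5 libraries, and the dotted line separates barcodes with 10 or more C1q UMIs. Most ICB pool 1 members lie at the bottom with at most 2 C1q UMIs, whereas 10 of 21 untreated members lie above the line.

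Depth and other cells of the libraries bear on these numbers. Total UMIs ran from 59839154 to 81960504 per library, and members had a median of 4501 UMIs (507 to 58416) in ICB pool 1 and 6937 (1945 to 44825) in the untreated pool, where other barcodes had medians of 8672 and 8395.5. ICB pool 1 also held the most neutrophil-gated barcodes (58, against 6 to 30 elsewhere), the most mast-gated barcodes (130, against 7 to 90), and the highest S100a8 level (622 CPM, against 31.9 to 341). Its haemoglobin transcript Hbb-bs stood at 41.9 CPM against 0.0245 to 0.974 elsewhere, with 1 barcode of 100 or more such UMIs, and members held 0. Whether blood in the tissue took part in the number of members was not tested.

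Among the gate genes, Hdc was the most abundant in members, and these values follow from the rule and are given without a test. Levels are given as CPM, the UMIs of a gene summed over the members and scaled to a common total of all their UMIs; since 3′ counting takes 1 tag per molecule, they are not scaled by gene length. Hdc stood at 6521 CPM in ICB pool 1 and 1739 in the untreated pool, with medians of 35 and 18 UMIs per barcode. Cd200r3 was found in 131 of 141 and in all 21 members, at a median of 6 UMIs in both libraries (981 and 420 CPM). Cyp11a1 had medians of 9 and 6 UMIs (1649 and 459 CPM) and Gata2 of 4 and 3 (847 and 359 CPM). Mcpt8 was the least evenly held. It was found in 107 of 141 members of ICB pool 1 at a median of 2 UMIs with a highest value of 288, and in 9 of 21 untreated members. As a background, UMIs of Mcpt8, Cd200r3, Cyp11a1 and Gata2 were found in 0.275% to 1.04% of T cells, whose median depths were 8010 UMIs in ICB pool 1 and 9421 in the untreated pool, and Hdc UMIs in 5.19% and 5.28%.

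Part of the Mcpt8 and Cd200r3 transcripts lay outside the gate. Of 2138 Mcpt8 UMIs in ICB pool 1, 1230 were in members and 893 in barcodes left out for Cma1, Mcpt4 or Tpsb2. In the untreated pool, 30 of 444 were in members and 409 in those barcodes. Members held 75.3% of the Cd200r3 UMIs of ICB pool 1 and 34.0% of those of the untreated pool.

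**Figure D3:**
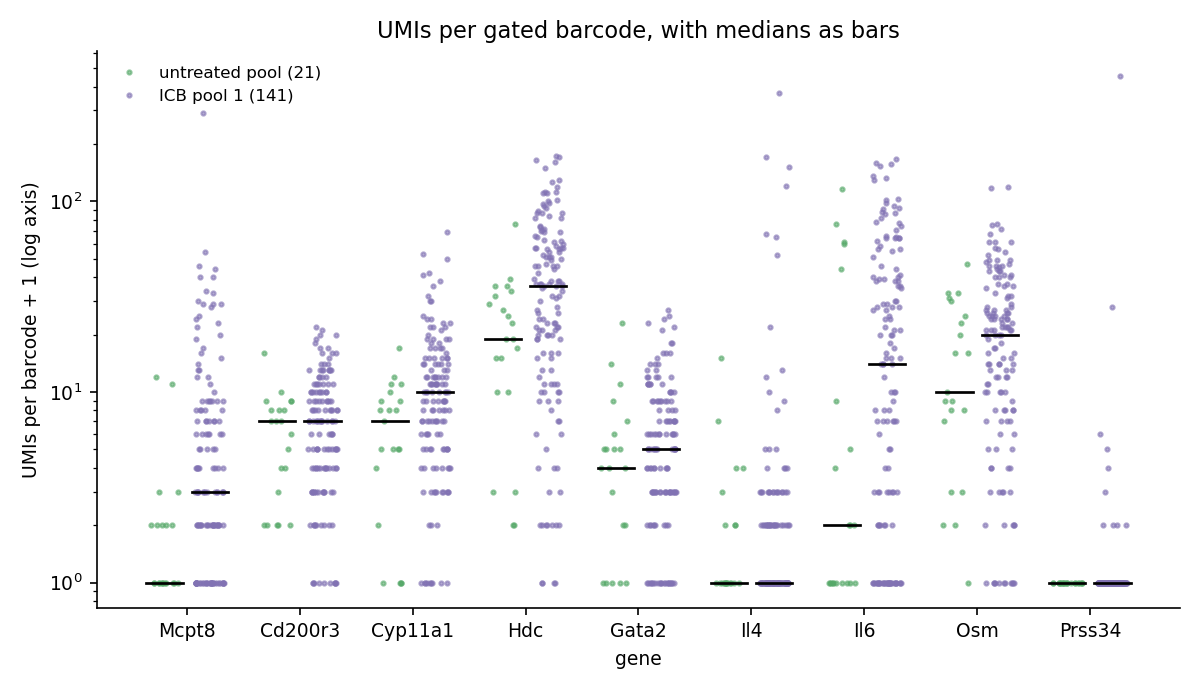
UMIs per gated barcode plus 1 (vertical log axis) of 5 gate genes and of Il4, Il6, Osm and Prss34 in the untreated pool (21 barcodes, green) and ICB pool 1 (141 barcodes, purple). Points are barcodes and black bars are medians. Hdc is high in most members, whereas Il4 and Prss34 have medians of 0 with a few very high barcodes.

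The members were compared with all other barcodes of the same library to describe their state. Only ICB pool 1 and the untreated pool had at least 5 members, so UMIs were summed over members and over other barcodes in each of these 2 libraries, and tested with edgeR's quasi-likelihood test with the library as a block, leaving out the 8 genes of the gate. This leaves 1 residual degree of freedom. The p-values measure how far the difference between members and other barcodes varied between 2 pools that also differ in treatment. That spread is estimated with information shared over all tested genes, so a very small p-value does not stand for many replicates. Of 15198 genes, 575 (3.78%) were higher in members and 204 (1.34%) lower at a Benjamini-Hochberg adjusted p under 0.05, or 5.13% in either direction. On simulated counts the same fit recovered 45% of 4-fold changes and 1% of 2-fold changes, so a gene that did not pass is not shown to be alike. The median log2 fold change of all tested genes was -0.18.

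The label was set against the 12 basophil markers outside the gate, Il4 among them. The list was chosen with earlier results of these data known, so it is no independent check. Of the 12 markers, 11 were higher in members, with a median log2 fold change of 3.53, and Cpa3 did not pass. The 11 included the IgE receptor chain Ms4a2, the common beta chain Csf2rb of the interleukin-3 receptor, the interleukin-18 receptor subunit Il18rap, the integrin Itga2 (CD49b), the activation marker Cd69 and Gata1. Ms4a2 stood at 271 CPM in members of ICB pool 1 against 2.70 in other barcodes, and at 73.2 against 2.13 in the untreated pool (log2 fold change 6.24 ± 0.41 SE, edgeR adjusted p 1.4e-49). Ifitm1, an interferon-inducible membrane protein gene, stood at 7387 against 79.1 and at 2290 against 374 CPM. The sum of the 12 markers was 12811 CPM against 463 in ICB pool 1 and 3890 against 762 in the untreated pool. Ifitm1 made up most of the members' sum in both libraries. The 1 member of PT2385 pool 2 had a sum of 5947 CPM with 10 of the 12 markers at 0, so the sum alone is no check of the label. The calls for 10 of the 11 remained in members with at most 2 C1q UMIs, Il3ra being the exception, and 2 of the 11 (Il4 and Ms4a2) remained without the library block.

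Several mast cell markers and most eosinophil markers were at or near 0. For mast cells this follows in part from the exclusion of their proteases by the rule, so it is no separate check of the label. Mast cell markers outside the gate summed to 11.7 CPM in ICB pool 1 and 11.6 in the untreated pool, with Mrgprb1, Mrgprb2 and Mrgprx2 at 0 in both libraries, and Kit, the stem cell factor receptor, at 5 UMIs and 1 UMI. Of 8 eosinophil markers, Prg2, Epx, Ear1, Ear2, Ear6 and Il5ra were at 0 in both libraries, whereas Ccr3, the eotaxin receptor, was higher in members from 11 and 3 UMIs (log2 fold change 4.66 ± 1.03, edgeR adjusted p 0.00025). Siglecf, a lectin receptor of eosinophils, was higher from 7 UMIs in each library (2.74, edgeR adjusted p 0.035), though not with DESeq2, no filter on low counts or no library block. The 8 eosinophil markers summed to 19.2 CPM in members of ICB pool 1 against 38.3 in its other barcodes, and to 38.5 against 4.13 in the untreated pool. Of 6 T cell markers 3 were lower, as were 3 of 6 NK, 3 of 5 tested B and plasma cell, and 4 of 6 dendritic cell markers. In members with at most 2 C1q UMIs 0 of the 3 T cell calls remained, 1 of the 3 NK, 1 of the 3 B and plasma cell, and 2 of the 4 dendritic cell calls. In the same order, 3, 2, 2 and 2 remained without doublets, 3, 2, 3 and 4 with at least 3 gate genes, and 1, 0, 0 and 1 with DESeq2. None of the 12 macrophage and monocyte markers was higher and 1 of them, Ms4a7, was lower. Neutrophil markers summed to 9423 CPM in members of ICB pool 1 against 1502 in its other barcodes. S100a8 gave 4019 UMIs there, of which 1 barcode held 77.8%.

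Among the members of ICB pool 1, 5 of the 6 barcodes with exactly 2 gate genes went against the label. Of these, 2 had 1 Mcpt8 and 1 Hdc UMI, no Il4 or Il6 UMI, and 259 and 174 UMIs of Cd74, the class II invariant chain. The other 3 had 1 Mcpt8 UMI, 1 to 3 Hdc UMIs and 1379, 830 and 267 UMIs of the azurophil granule genes Elane, Mpo and Prtn3, with 6732, 27 and 1809 UMIs of S100a8 and S100a9 and no Il4 or Il6 UMI. In the 7-gene progenitor list, Elane, Mpo, Prtn3 and Ms4a3 were higher in members. With at least 3 gate genes the log2 fold changes of all 4 were negative, at -5.69, -4.65, -5.21 and -1.13. In the untreated pool, the 4 members with exactly 2 gate genes went against the label too. Each had 1 Cd200r3 UMI, 1 or 2 Hdc UMIs, and no Mcpt8, Il4, Fcer1a or Ms4a2 UMI. Their Cd74 UMIs were 27, 88, 226 and 948. They had 7794, 16342, 6937 and 44825 UMIs among the 259413 of all untreated members, so they weigh on the untreated levels.

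Many cytokine transcripts were higher in the members. Of 14 cytokine and growth factor genes tested, 9 were higher in members, 0 lower and 5 did not pass, with a median log2 fold change of 2.89. The 9 were Il4, Il13, Il6, Lif, Csf1, Osm, Hgf, Tnf and Csf2. Il5 and Il9 had no UMI in members of either library, and Il10 had 3 UMIs and 1.

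Interleukin-4, the type 2 cytokine that basophils are known for, was concentrated in few barcodes. Il4 reached 1213 CPM in members of ICB pool 1 (95% Poisson interval 1143 to 1285) against 2.81 in other barcodes, and 120 (81.2 to 170) against 1.25 in the untreated pool. The log2 fold change was 8.01 ± 0.47 (edgeR adjusted p 3.3e-61). Members were 2.40% of the barcodes of ICB pool 1 and held 1137 of its 1320 Il4 UMIs (86.1%). In the untreated pool they held 31 of 133 (23.3%), and in combination pool 2 the 1 member held 48 UMIs of 103. In ICB pool 1, 58 of 141 members (41.1%) had an Il4 UMI, against 1.21% of T cells, but the median was 0 and 10 members had 10 or more. The highest barcode held 370 UMIs, 32.5% of the members' Il4, the next 170, and the top 10 together 91.1%. In the untreated pool 8 of 21 had an Il4 UMI, the highest 14. Interleukin-13, the type 2 cytokine that shares a receptor chain with Il4, was much lower at 31 UMIs in 20 members and 3 UMIs in 2 (log2 fold change 4.99 ± 0.85, edgeR adjusted p 3.5e-07).

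Interleukin-6, an inflammatory cytokine, was more abundant and more evenly held than Il4. It stood at 4447 CPM (4313 to 4584) against 7.57 in ICB pool 1 and at 1426 (1285 to 1579) against 3.55 in the untreated pool (log2 fold change 9.14 ± 0.54, edgeR adjusted p 8.7e-61). Members held 4169 of the 4662 Il6 UMIs of ICB pool 1 (89.4%) and 370 of 659 in the untreated pool (56.1%). In ICB pool 1, 108 of 141 members (76.6%) had an Il6 UMI, with a median of 13 and a highest value of 166, against 1.99% of T cells. In the untreated pool 11 of 21 members did, with a median of 1. With at most 2 C1q UMIs, the untreated members held 10.2% of that pool's Il6 and 5.26% of its Il4. Of the 141 members, 50 had both Il4 and Il6, 8 had Il4 alone, 58 had Il6 alone and 25 had neither, which is a description of sparse counts.

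The remaining secreted factors act on myeloid, stromal or tissue cells. Osm, oncostatin M, stood at 3439 against 91.9 CPM in ICB pool 1 and 1214 against 160 in the untreated pool, with UMIs in 130 of 141 and 20 of 21 members (log2 fold change 4.30 ± 0.45, edgeR adjusted p 1.7e-19). Csf1, the growth factor of macrophages and microglia, stood at 1189 against 26.6 and 428 against 24.0 CPM (5.05 ± 0.41). Members held 39.2% of the Csf1 UMIs of ICB pool 1, but only 111 of 2070 in the untreated pool. Hgf, hepatocyte growth factor, stood at 968 against 46.3 and 220 against 81.9 (3.2 ± 0.40). Lif, a cytokine that signals through the receptor subunit shared with Osm and Il6, came from 31 and 3 members (6.46 ± 0.44). Each of these levels was higher in the members than in the other barcodes of both libraries. Csf2 rested on 51 UMIs in 1 barcode. Tnf was at 121 and 197 CPM, with 86.3% of the untreated UMIs in 1 barcode, and no longer passed with at most 2 C1q UMIs. Il1b, Tgfb1, Vegfa, Areg and Il10 did not pass. Their log2 fold changes ran from -1.75 for Il10 to 1.07 for Areg.

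Among 13 chemokines, 5 were higher, 3 lower and 5 did not pass, with a median log2 fold change of -0.74. Ccl4 and Ccl3, attractants of monocytes and T cells, were among the 15 most abundant transcripts of the members apart from ribosomal and mitochondrial genes. Ccl4 stood at 14700 CPM in ICB pool 1 against 533, and at 6488 against 455 in the untreated pool (log2 fold change 4.52 ± 0.51, edgeR adjusted p 2.7e-16). Ccl3 stood at 10304 against 158 and 4267 against 128 (5.76 ± 0.52). Ccl6 and Ccl9, ligands of Ccr1, rose by 5.90 ± 0.51 and 4.26 ± 0.41 on the log2 scale, with Ccl6 at 8704 and 3157 CPM. Members were 1.42% of the UMIs of ICB pool 1 but held 48.5% of its Ccl3, 51.0% of its Ccl6 and 28.4% of its Ccl4. Cxcl2, a neutrophil attractant, was higher through few barcodes (21 and 5 members with a UMI) and did not pass with at most 2 C1q UMIs. The 3 lower chemokines, Ccl1, Ccl17 and Ccl22, had 1, 2 and 7 UMIs in members of ICB pool 1 and 0 in the untreated pool, and none of the 3 passed with at most 2 C1q UMIs. The ligands Ccl2, Ccl5, Ccl7, Ccl24 and Cxcl10 did not pass over all members. With at most 2 C1q UMIs, Ccl2 (-2.32), Ccl7 (-4.32) and Ccl24 were lower, the last from 0 UMIs left in members. Since that cut left the other barcodes as they were, these falls cannot be told apart from its effect. Ccl7 was also lower without doublets (-1.47), and Cxcl10 with at least 3 gate genes (-1.78).

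**Figure D4:**
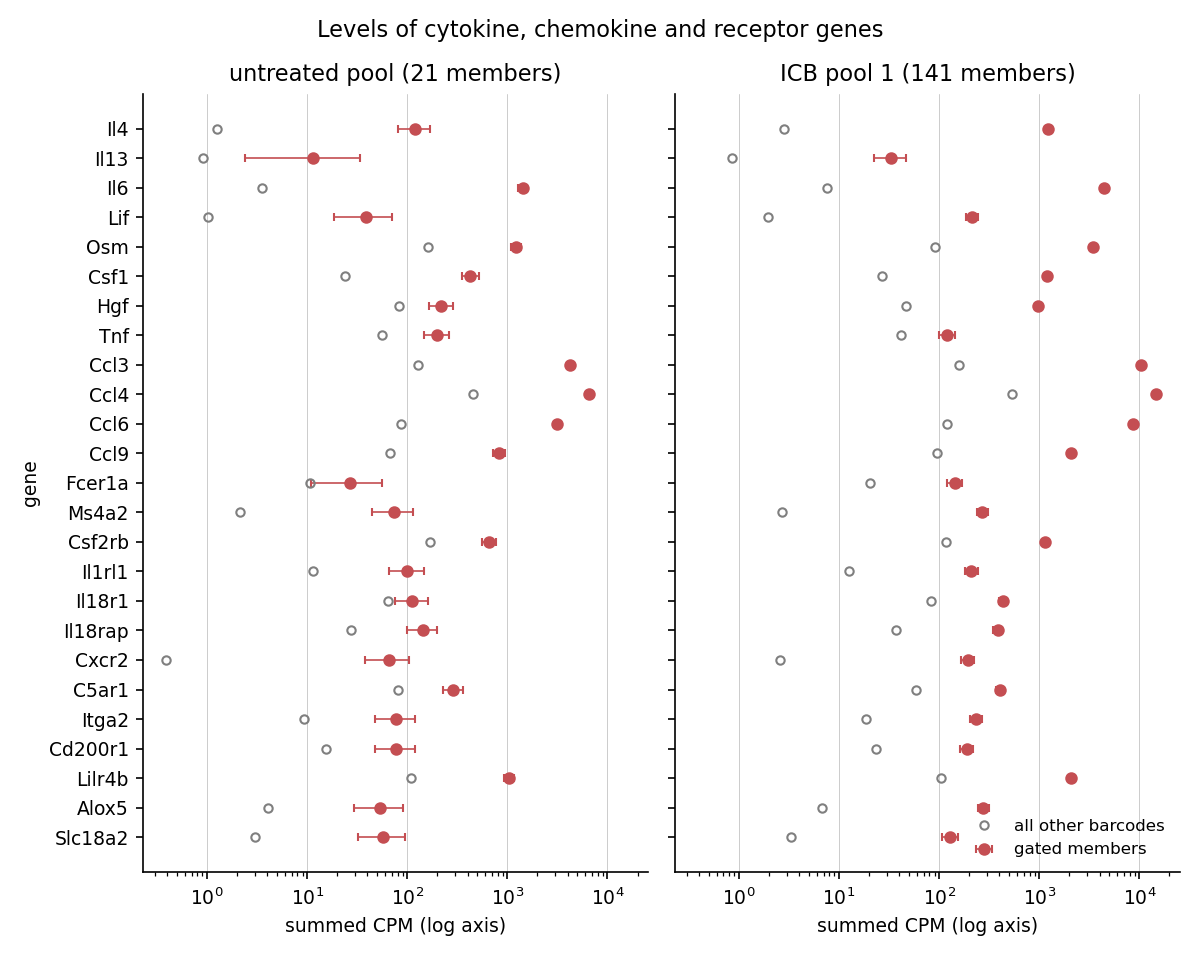
Summed CPM (horizontal log axis) of 25 cytokine, chemokine, receptor and lipid-mediator genes in gated members (red, with Poisson 95% intervals) and in all other barcodes (grey circles), in the untreated pool (21 members) and ICB pool 1 (141 members). Genes are rows. In ICB pool 1, Il6 and Il4 show the widest gaps, at 4447 against 7.57 and 1213 against 2.81, whereas Fcer1a and Tnf show small ones.

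The receptors through which basophils are known to be activated were partly higher. Of 14 genes of IgE receptor signalling, 5 were higher, 0 lower and 9 did not pass (median log2 fold change 0.30). Fcer1a, which binds IgE, stood at 143 CPM in ICB pool 1 against 20.4, and at 27.0 against 10.7 in the untreated pool (2.59 ± 0.39, edgeR adjusted p 3.0e-09). UMIs of Fcer1a were found in 59 of 141 and 5 of 21 members, and those of Ms4a2 in 89 and 9. The gamma chain Fcer1g, shared with other Fc receptors and made by most myeloid cells, was at 1812 against 2095 and 2151 against 2283 CPM (0.07 ± 0.39, edgeR adjusted p 0.97). The kinase Btk and the adaptors Lat2 and Gab2 were the other genes that passed, at 1.67 ± 0.34, 1.52 ± 0.35 and 1.16 ± 0.37. Lat2 and Gab2 did not pass with at most 2 C1q UMIs.

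Of 13 cytokine receptor genes tested, 6 were higher and 0 lower (median 0.33). Il1rl1, the receptor of interleukin-33, stood at 210 against 12.5 CPM in ICB pool 1 and 100.2 against 11.6 in the untreated pool (3.89 ± 0.36, edgeR adjusted p 5.7e-25). Both interleukin-18 receptor subunits were higher, Il18rap by 3.14 ± 0.35 and Il18r1 by 1.92 ± 0.35, and so were the beta chains Csf2rb by 2.85 ± 0.38 and Csf2rb2 by 3.26 ± 0.36. Il3ra, the specific interleukin-3 receptor chain, was near its threshold at 1.16 ± 0.37 (edgeR adjusted p 0.039), with 67 and 10 UMIs. The thymic stromal lymphopoietin receptor Crlf2 and the interleukin-7 receptor did not pass, at 0.33 ± 0.32 and 0.22 ± 0.34.

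For migration, 6 of 15 tested receptors and integrins were higher and 0 lower (median 0.63). Cxcr2, the receptor of Cxcl1 and Cxcl2 best known from neutrophils, was at 192 CPM against 2.58 in ICB pool 1 and 65.5 against 0.393 in the untreated pool (6.90 ± 0.42, edgeR adjusted p 4.2e-57), with UMIs in 79 of 141 and 8 of 21 members. The complement receptor C5ar1 rose by 2.55 ± 0.35, Itga2 by 3.65 ± 0.36 and Itgam by 1.24 ± 0.33, of which Itgam did not pass with at most 2 C1q UMIs. Ptgdr2, a prostaglandin D2 receptor, had 0 UMIs in the members of both libraries. Among 14 tested inhibitory receptors, the 4 higher were Cd200r1, Cd200r4, Lilrb4a and Lilr4b, with Lilr4b at 2096 against 104 and 1041 against 110 CPM (4.01 ± 0.41). Of the receptors that ICB targets, Pdcd1 (PD-1) was at 16.0 against 32.9 CPM in ICB pool 1 and 15.4 against 52.2 in the untreated pool (-1.03, edgeR adjusted p 0.25), from 15 UMIs in 4 members and 4 UMIs in 1. It was lower with doublets removed (-4.73, edgeR adjusted p 4.4e-05). Havcr2 (TIM-3) was at 192 against 150 and 204 against 178 CPM (0.50 ± 0.33, edgeR adjusted p 0.63).

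Genes of granules and lipid mediators were higher for 8 of 15 and lower for 1 (median 1.84). Srgn, the proteoglycan core that holds granule contents, was in all 141 and 21 members at 9191 and 4163 CPM (2.2 ± 0.46). Slc18a2, which loads histamine into granules, rose by 5.11 ± 0.41, Alox5 and Alox5ap, which start leukotriene synthesis, by 4.96 ± 0.40 and 1.84 ± 0.38, and Ptgs2 by 2.31 ± 0.36. Alox15, an arachidonate lipoxygenase, gave only 17 and 2 UMIs, yet these were 17 of 21 and 2 of 4 in the libraries. The prostaglandin D synthase Hpgds was lower, at 42.7 against 154 and 50.1 against 92.9 CPM (-1.21 ± 0.35). It passed with at least 3 gate genes and without doublets, but not with DESeq2, libraries of at least 3 members or no library block.

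The granule proteases were held by few members. Prss34, a tryptase of basophils, gave 498 UMIs in 10 of 141 members, of which 1 barcode held 453 (91.0%), and 0 in the untreated pool. That barcode, with 11143 UMIs and all 5 gate genes, was also the highest for Mcpt8 (288 UMIs) and Cpa3 (61 UMIs), and held 2 Il4 and 3 Il6 UMIs. The barcode with the most Il4 (370 UMIs) held 166 Il6, 39 Mcpt8, 1 Prss34 and 1 Cpa3 UMIs. Ctsg came from 9 members, 66.6% of it from 1 of the barcodes with azurophil transcripts, and did not pass with at least 3 gate genes. Members thus differed widely among themselves in protease and cytokine transcripts, and no test was made within the gate.

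Of 15 transcription factor genes outside the gate, 4 were higher and 0 lower (median 0.01). Runx1 rose by 1.77 ± 0.37 and Gata1 by 5.28 ± 1.02, the latter from 21 UMIs and 1. Nfil3 and Cebpb passed at 1.34 ± 0.34 and 1.08 ± 0.35, but not with at most 2 C1q UMIs. Spi1 (PU.1), Ikzf1 and Mitf did not pass over all members. Mitf was lower with at most 2 C1q UMIs (-4.11), a cut made on the members only. Runx1 was at 1720 against 525 and 1207 against 458 CPM.

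Immediate early genes, which respond quickly to stimulation and to tissue dissociation, were higher for 10 of 18 and lower for 0 (median 1.57). Ier3 stood at 8095 against 240 CPM in ICB pool 1 and 2159 against 414 in the untreated pool (3.95 ± 0.49, edgeR adjusted p 1.1e-13), and Egr1 at 3561 against 282 and 964 against 136 (3.46 ± 0.41). Ier2, Egr3, Jun, Junb, Jund and Zfp36 were the next 6. The other 8, among them Fos, Dusp1 and Nr4a1, did not pass, with Fos at 1331 against 1451 and 1696 against 1815 CPM. The heat shock genes Hspa1a and Hspa1b passed through 123 and 60 UMIs in 1 barcode each, and their log2 fold changes were -0.76 and -1.37 with at least 3 gate genes, where neither passed. How far dissociation took part was not tested.

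The drug of this study blocks HIF-2α, encoded by Epas1. Epas1 gave 2 UMIs in members of ICB pool 1 and 1 in the untreated pool, and Hif1a was at 188 against 211 and 420 against 433 CPM (0.11 ± 0.33, edgeR adjusted p 0.95). None of 9 HIF and drug target genes passed. Of 14 hypoxia-induced genes, 4 were higher and 0 lower (median 0.18). These were Ddit4 (2.98 ± 0.35), an inhibitor of mTORC1 signalling, the prolyl hydroxylase Egln3 (2.40 ± 0.38), Ndrg1 (1.55 ± 0.34) and the glucose transporter Slc2a1 (1.17 ± 0.33). Ndrg1 and Slc2a1 did not pass with at most 2 C1q UMIs, and glycolytic genes such as Ldha and Pgk1 did not pass at 0.20 ± 0.34 and 0.06 ± 0.33. Neither pool in the comparison had received PT2385.

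Type I interferon response genes were higher for 2 of 14, Rsad2 (1.74 ± 0.33) and Ifit1 (1.42 ± 0.33). Their UMIs were uneven, with 81.0% of the untreated Rsad2 in 1 barcode, and Rsad2 did not pass with at least 3 gate genes. Of 10 survival genes, the kinases Pim1 and Pim2 and the inhibitor of apoptosis Birc3 (not with at most 2 C1q UMIs) were higher, and Bcl2a1a and Bcl2a1d, near-identical copies whose reads can be split between them, were lower. Birc3, Bcl2a1a and Bcl2a1d passed with at least 3 gate genes, but not with DESeq2, without doublets or without the library block. Proliferation genes were higher for 0 of 9. Top2a was lower, with 39 UMIs in 9 members of ICB pool 1 and 0 in the untreated pool, though not with at most 2 C1q UMIs, and Mki67 was at 74.7 against 80.8 and 7.71 against 42.2 CPM (-0.34 ± 0.38, edgeR adjusted p 0.87). The 3 barcodes with azurophil transcripts held 12, 14 and 3 of the 70 Mki67 UMIs of ICB pool 1. With at least 3 gate genes, which leaves them out, Top2a (-3.55), Birc5 (-3.50), Stmn1 (-1.98), Mcm5 (-2.21) and Cdk1 (-2.44) were lower.

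The values for antigen presentation (MHC class II genes and the costimulatory genes Cd80 and Cd86) differed between all members and those with few C1q UMIs. None of 9 genes passed over all members (median -0.70), with Cd74 at 3208 against 9907 CPM in ICB pool 1 and 13866 against 15962 in the untreated pool. The 10 highest members of ICB pool 1 held 93.0% of the members' Cd74 UMIs and 94.4% of their H2-Aa UMIs. With at most 2 C1q UMIs, 5 of the 9 were lower, namely H2-Aa (-2.33), H2-Ab1 (-2.29), H2-Eb1 (-2.50), Cd74 (-2.22) and Cd80 (-2.23). That cut was made on the members only, so these falls cannot be told apart from its effect. None of these 5 passed with at least 3 gate genes or without doublets. In these 2 refits Cd74 was at -0.82 and -0.89, and H2-Aa at -0.88 and -0.93.

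Across all genes, the largest rises among those with at least 100 CPM in the members held both familiar and little-known names. Csrp3, a muscle LIM protein gene, gave 126 UMIs in members of both libraries against 5 in all other barcodes (11.23 ± 0.63, edgeR adjusted p 1.2e-66). Grm6, a metabotropic glutamate receptor gene, gave 174 against 25 (9.54 ± 0.49). After Il6 and Il4 came Klf5, a Krüppel-like transcription factor (7.74 ± 0.48), the water and glycerol channel Aqp9 (7.43 ± 0.42), the noncoding locus E230016K23Rik (7.25 ± 0.42), the laminin chain Lama5 (7.14 ± 0.49), the catenin Ctnna3 (6.94 ± 0.49), Cxcr2, the myosin Myo1d (6.86 ± 0.42) and the prostaglandin E receptor Ptger3 (6.62 ± 0.46). Csrp3 was found in 56, Grm6 in 79, Aqp9 in 108 and Myo1d in 129 of 141 members of ICB pool 1. In the untreated pool these numbers were 4, 10, 15 and 16 of 21. All 12 of these rises passed in each of the refits named in the closing section that gave a value, including the fit without the library block.

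The largest falls were mostly known products of other cells. They were Ttr (transthyretin, of choroid plexus), the immunoglobulin chains Iglc1 and Igkc, the mast cell proteases Mcpt1 and Mcpt2, the chemokine Ccl8 (-3.80 ± 0.40) and the granzymes Gzmc (-2.82 ± 0.43) and Gzma (-2.74 ± 0.39). Of these 8 falls, 6 passed with DESeq2 (not Ttr and Gzma) and 4 without the library block (Igkc, Mcpt1, Mcpt2 and Ccl8). Mcpt1 and Mcpt2 follow the exclusion of the related proteases. Ttr differed between libraries, with 50 of the 295650 UMIs of ICB pool 1 in members, but 0 of 21 in the untreated pool. Its library level ran from 0.257 to 23044 CPM over all 7 libraries.

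**Figure D5:**
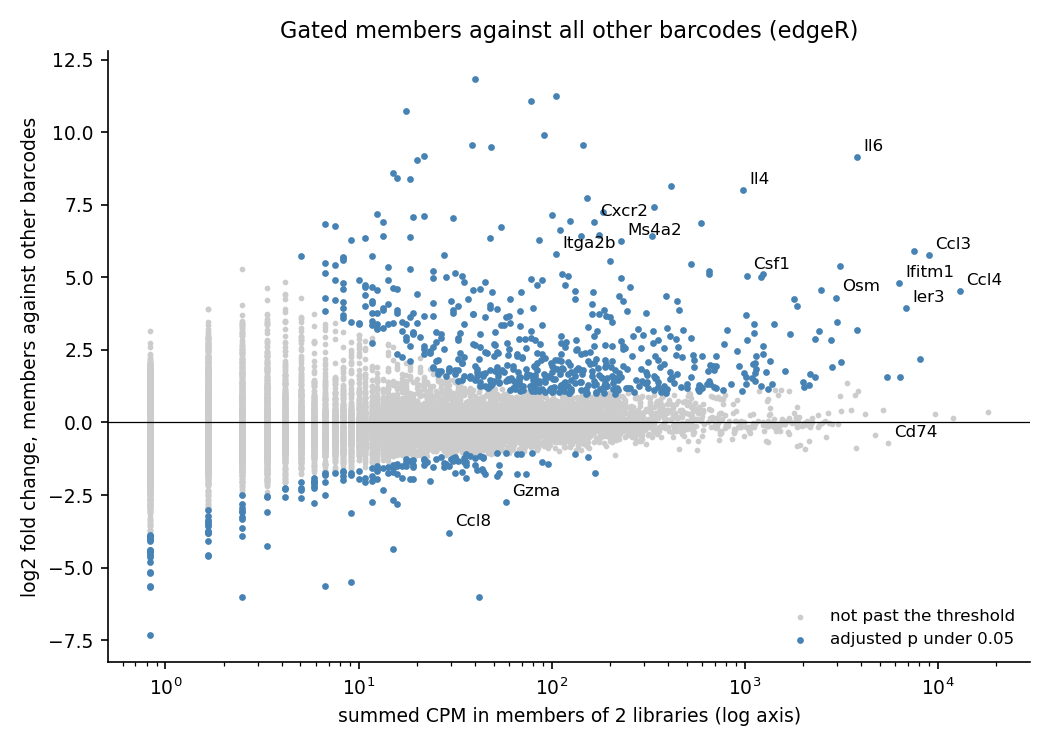
Log2 fold change of members against all other barcodes (vertical axis, edgeR) by the level in members of 2 libraries (horizontal log axis, CPM), for the tested genes with a UMI in members. Blue points have an adjusted p under 0.05 and grey points do not. Il6 (9.14) and Il4 (8.01) lie far above 0 at high level, and Gzma (-2.74) and Ccl8 (-3.80) lie below.

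Neutrophils were compared as another granulocyte that circulates in blood. They were gated on at least 2 of Retnlg, Cxcr2, Csf3r, Mmp8 and Ly6g and at least 5 UMIs of S100a8 and S100a9, which gave 58 barcodes in ICB pool 1 and 6 in the untreated pool. Of 5696 genes, 99 (1.74%) were higher in basophil members and 69 (1.21%) lower, or 2.95% in either direction. The 6 untreated barcodes carried macrophage transcripts too, with Apoe at 21200 and C1qa at 4204 CPM, so the comparison rests mainly on ICB pool 1.

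Cytokine and chemokine genes were higher in members than in neutrophils too. Of the cytokine list 5 of 11 tested were higher (Il4, Il6, Lif, Csf1 and Osm) and of the chemokine list 4 of 9 (Ccl3, Ccl4, Ccl6 and Ccl9). Il4, Ms4a2 and Lif had 0 UMIs in the neutrophil sums, so members were at least 242-fold, 56.6-fold and 43.7-fold higher against a floor of 3 counts over both libraries. Il6 gave 4539 UMIs in members against 1. Csf1 rose by 5.22 ± 0.56 (edgeR adjusted p 0.0098), Ccl3 by 6.60 ± 0.46 and Ccl6 by 4.73 ± 0.46. The carbonic anhydrase relative Car8 and the cadherin Cdh1 were also at 0 in neutrophils, for at least 81.9-fold and 63.4-fold. In the other direction, the neutrophil granule genes Ltf (lactoferrin) and Mmp9 (gelatinase B), and Lrg1 and Fpr1, had 0 UMIs in members, at least 1399-fold, 259-fold, 71.3-fold and 46.6-fold lower. Lcn2 was 17 UMIs in members against 4046. Cxcr2 belongs to the neutrophil gate and was not tested, at 192 CPM in members and 207 in neutrophils of ICB pool 1. C5ar1 and Alox5ap did not pass, at 0.72 ± 0.38 and 0.51 ± 0.36.

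Mast cells were gated on at least 1 UMI of Cma1, Mcpt4 or Tpsb2, at least 2 genes found among these 3, Tpsab1 and Kit, and no Mcpt8 UMI, which gave 130 barcodes in ICB pool 1 and 90 in the untreated pool. Of 8729 genes, 267 (3.06%) were higher in basophil members and 112 (1.28%) lower, or 4.34% in either direction. Dendritic cell markers were higher in the mast cell sums for 5 of 6 genes, with Flt3 at 53.7 and 60.8 CPM, so some of these barcodes carried RNA of other cells.

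Cpa3, the mast cell carboxypeptidase, was lower in basophil members at 123 against 1697 CPM in ICB pool 1 and 23.1 against 1286 in the untreated pool (-4.25 ± 0.52, edgeR adjusted p 0.0073). Fcer1a was lower as well, at 143 against 551 and 27.0 against 275 (-2.19 ± 0.42, edgeR adjusted p 0.033), whereas Ms4a2 did not pass at 1.59 ± 0.43 (adjusted p 0.092). Il1rl1 was at 210 against 154 and 100.2 against 138 CPM and did not pass (0.27 ± 0.36, adjusted p 0.76). Il6 rose by 7.22 ± 0.48, Csf1 by 4.75 ± 0.50, Osm by 4.32 ± 0.60 and Il4 by 3.65 ± 0.67. Ccl3 and Ccl6 rose by 6.62 ± 0.35 and 6.59 ± 0.35, while Ccl7 (-2.18 ± 0.31) was lower. Of 14 migration receptors tested, 6 were higher in members and 8 did not pass, with Cxcr2 at 7.56 ± 0.55, C5ar1 at 3.33 ± 0.36 and Itgam at 2.10 ± 0.31.

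Some genes had no UMI on 1 side of this comparison. E230016K23Rik, Ctnna3, Csrp3 and Lama5 had 0 UMIs in the mast cell sums, so members were at least 162-fold, 109-fold, 92.1-fold and 87.7-fold higher. Tph1, which makes serotonin, and Hs6st2, a heparan sulfate sulfotransferase, had 0 UMIs in members, at least 80.9-fold and 51.2-fold lower. Rab27b, which takes part in granule secretion, was lower by a log2 fold change of -4.47 ± 0.43.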

How the data were processed

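Leukocytes of GL261-bearing brains were sequenced in 7 pooled libraries. The authors deposited raw UMI counts per gene and barcode for each library, made with Cell Ranger (2.2.0 per the submitters' processing notes, 7.0.0 per the file headers) on GRCm39. Of 41033 barcodes, 40416 met a minimum of 300 detected genes and a ceiling of 10% mitochondrial UMIs. Counts were summed per library over gated barcodes and tested with edgeR 4.0.16 (quasi-likelihood, TMM, filterByExpr, library as block), the method having been tested on simulated data. Levels are CPM (summed UMIs scaled to a common total), with exact Poisson or binomial 95% intervals that cover counting error only. Alternatives were DESeq2 1.42.0, other size factors and filters, no block, other gates, and doublet removal with Scrublet (scanpy 1.11.5), whose automatic threshold had marked 11 barcodes in all. Replicate numbers of the libraries follow accession order and pair nothing. The block pairs members and other barcodes of 1 library, which come from the same mice.

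The members and gene lists were chosen with earlier results of these data known. Named genes are those of the lists, and the 12 largest rises and 8 largest falls against the other barcodes (6 each against neutrophils and mast cells) with at least 100 CPM in the members (rises) or in the other sums (falls), in the same direction in both libraries, leaving out receptor variable segments, ribosomal and mitochondrial genes. Aldoa, whose symbol is used more than once, was not tested, and Ero1a and Mx1 were not used. Some genes of the lists are not reported here.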

Additional observations from a re-analysis of the deposited data

How the results depend on the processing

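The number of members moved with the gate. With at least 3 gate genes, PT2385 pools 1 and 2, ICB pool 2 and combination pool 1 had 0%. With at least 2 Mcpt8 UMIs the untreated pool had 0.0502%, ICB pool 1 had 1.43%, and these 4 libraries again 0%. Il6 in untreated members was 1994 CPM with at least 3 gate genes and 1673 without doublets. In ICB pool 1, Il4 was 1296, 1611 and 1520 CPM and Il6 5038, 5628 and 5768 with at least 3 gate genes, without doublets, and with at most 2 C1q UMIs. The share of Il4 in members of ICB pool 1 was 81.1% with at least 3 gate genes and 72.0% with at most 2 C1q UMIs. That C1q limit gave 77.3% for its Il6, and 5.26% and 10.2% for untreated Il4 and Il6. Over all 7 libraries, leaving out 1 library in turn gave Il4 levels of 207 to 1118 CPM (main 922), Il4 shares of 16.2% to 71.4% (67.3%), Il6 levels of 1094 to 3978 (3476) and Il6 shares of 24.6% to 74.8% (72.1%). The lowest value of each was without ICB pool 1. Counts of genes could not be refitted without 1 library, since no residual degree of freedom was left.

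Against the other barcodes, 575 higher and 204 lower genes became 357 and 32 with DESeq2, 139 and 9 with no replicate block, and the lower count 330 with at least 3 gate genes and 382 with at most 2 C1q UMIs. Against neutrophils, 99 and 69 became 268 and 244 with no filter on low counts, 0 and 1 with no replicate block (590 at an unadjusted p under 0.05; DESeq2, with the block, called 90 and 58), 2 and 18 with libraries of at least 3 members, 198 and 174 with at least 3 gate genes, and 151 and 115 with at most 2 C1q UMIs. Without doublets 41 were lower. Against mast cells, 267 and 112 became 444 and 213 with RLE size factors, 575 and 393 with no filter, 9 and 5 with no replicate block, 0 and 2 with libraries of at least 3 members (900 at an unadjusted p under 0.05; DESeq2 on the main libraries called 187 higher), and 685 and 403 with at least 3 gate genes. DESeq2 gave 45 lower, doublet removal 176 higher, and at most 2 C1q UMIs 314 lower. Libraries of at least 3 members add ICB pool 2, and the cause of the other moves was not tested.

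Among the named genes, the log2 fold changes against the other barcodes that changed sign with a call on either side were Areg -12.58, Ccl24 -13.70, Arg1 -6.34 and Sparc -4.98 with at most 2 C1q UMIs, Il2ra -14.48 without doublets, and, with at least 3 gate genes, Hspa1b -1.37, Hspa1a -0.76, Cdk1 -2.44, Prtn3 -5.21, Elane -5.69, Mpo -4.65, Ms4a3 -1.13, S100a8 -4.71 and S100a9 -5.08. Without doublets Hspa1b was -1.0 and Hspa1a -0.49, and with DESeq2 Hspa1a was -0.50. The values of Areg, Ccl24 and Il2ra come from members left with 0 UMIs and measure no size. The C1q cut was made on the members only. Of 302 gene values, 95 lost their call with no replicate block and 48 with DESeq2. The members of the untreated pool held 259413 UMIs in all, and those of the 5 libraries outside the tests 6472 to 61646.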
